A study of Mus musculus with 8 samples.

Results

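The genes described here are 8 transcription factors that set and keep the identity of intestinal epithelium: the caudal homeobox factors Cdx1 and Cdx2, the nuclear receptors Hnf4a and Hnf4g, the zinc finger factors Gata4, Gata5 and Gata6, and the Krüppel-like factor Klf4. They were chosen by name and matched by symbol. All 8 were found among 43629 genes in the count table, and all 8 passed the low-count filter that left 17029 genes to test. The series holds polyadenylated RNA from 4 tumor and 4 small intestine libraries of mice. Every library carries the same genotype label, APC mutant, the same strain label, C57B6/129, and the same treatment label, none. The series title concerns high-fructose corn syrup, but each of the 8 libraries is labelled as an untreated control, so the comparison is between tumor and small intestine. The Apc allele, the stretch of intestine, the age of the mice and the number of animals were not stated in those labels, and the control tissue comes from animals with the same Apc genotype as the tumors. The labels do not state whether the 4 libraries of a tissue are separate animals, so p-values reflect the spread among these samples alone, and that spread may be technical.

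In the gut, Cdx2 commits endoderm to an intestinal fate, and its loss in intestinal epithelium is known to allow gastric genes to be expressed. Cdx1 is a related factor with overlapping targets. HNF4A and HNF4G bind the same sites in enterocytes and activate genes of lipid handling and of the brush border. GATA4 is known for marking the proximal small intestine, where it keeps ileal genes such as bile acid transporters low, while GATA6 acts along the length of the gut and GATA5 is expressed in differentiated cells of the villus. KLF4 is found in differentiated cells at the surface, promotes goblet cell differentiation and restrains the cell cycle. APC, the tumor suppressor that is mutated in these mice, limits Wnt signalling through beta-catenin and TCF factors.

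Sequence upstream of the start was available from RefSeq for 4 of the 8 genes, and the windows of Hnf4a and Cdx2 are shown because Hnf4a was the most abundant factor per gene length in both tissues and Cdx2 is the factor that commits tissue to intestine. Each window covers 150 bases, from 200 to 51 bases before the RefSeq start (GRCm38.p6), and holds no annotated exon of the gene. Capitals mark matches to the motifs that were searched. The first lies at chr2:163506657-163506806 on the plus strand, before the upstream start of Hnf4a, the second at chr2:163546955-163547104 on the plus strand, before the downstream start of the same gene, and the third at chr5:147307300-147307449 on the minus strand, before Cdx2.
Hnf4a upstream start: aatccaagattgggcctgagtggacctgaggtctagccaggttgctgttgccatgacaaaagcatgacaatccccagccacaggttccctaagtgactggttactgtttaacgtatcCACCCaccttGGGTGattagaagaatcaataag
Hnf4a downstream start: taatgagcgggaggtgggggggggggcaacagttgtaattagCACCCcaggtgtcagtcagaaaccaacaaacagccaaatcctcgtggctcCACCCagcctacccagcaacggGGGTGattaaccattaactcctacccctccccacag
Cdx2: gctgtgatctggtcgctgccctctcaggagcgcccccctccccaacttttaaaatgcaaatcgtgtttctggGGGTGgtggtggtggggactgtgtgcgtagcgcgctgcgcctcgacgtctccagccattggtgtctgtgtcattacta
Searched on both strands were GATAA (the core that GATA factors bind), TTTATG (caudal factors), AAAGTCCA (HNF4), CTTTGAT (TCF factors) and CACCC (Krüppel-like factors). The upstream Hnf4a window held CACCC 83 to 79 bases before the start and, on the other strand, 73 to 69 bases before it. The downstream Hnf4a window held CACCC at 158 to 154 and 108 to 104 bases before the start, and on the other strand at 86 to 82 bases, where it reads GGGTG as printed. No match shared a base with another. The Cdx2 window held CACCC on the other strand, 128 to 124 bases before the start. The windows of Gata5 and Klf4 held no match to any of the searched motifs. Of 32851 windows placed the same way before all RefSeq starts, 36.6% held CACCC, 14.6% GATAA, 6.46% TTTATG, 1.88% CTTTGAT and 0.581% AAAGTCCA, so a CACCC match is common. These letters are a description of the windows, and counts per gene cannot tell transcripts of the 2 Hnf4a starts apart.

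The tumor libraries held 53856561 to 67371180 counts and the small intestine libraries 62347648 to 84433335, so that 3 counts equal 0.0331 to 0.0630 CPM (counts scaled to the size of the library). These sizes include edgeR's TMM factors, which were 1.33 to 1.38 in tumor and 0.687 to 0.788 in small intestine. With library totals alone as the scale, the median log2 fold change of all tested genes moved by 0.864, from 0.07 to 0.93, so that changes are also given relative to the median gene. Other cell types differed between the tissues. Beside the calls below, made with TMM, 35.4% of all tested genes were called lower in tumor and 38.9% higher. With library totals only these shares were 17.6% and 62.0%. All 12 pan-epithelial genes were tested, and their summed level was 7999 to 10590 CPM in tumor against 17908 to 24089 in small intestine. Of 7 fibroblast markers 6 were called higher in tumor and none lower (summed 1168 to 1871 against 22.1 to 68.1 CPM), of 6 endothelial markers 6 (179 to 233 against at most 24.1), of 6 smooth muscle markers 4 (154 to 188 against 31.9 to 96.8) and of 6 macrophage markers 4 (164 to 284 against 70.9 to 194). All 6 T cell markers were called lower in tumor (12.2 to 24.6 against 47.9 to 190.3 CPM), as were 4 of 5 B and plasma cell markers. Jchain, the remaining marker of that list, was not called (log2 fold change 0.46, edgeR quasi-likelihood adjusted p = 0.496). The summed level of that list, Jchain included, overlapped, at 177 to 841 CPM in tumor and 173 to 987 CPM in small intestine. Of 4 tested mast cell and erythroid markers, 4 were called higher. Each fibroblast, endothelial, smooth muscle, macrophage and T cell marker had counts in both tissues. How much of any difference below goes with these differences in cell make-up was not tested, and in bulk tissue fewer cells of a type and less RNA per cell cannot be told apart.

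All 8 factors were lower in tumor with TMM scaling, by 1.42-fold for Gata6 to 22.9-fold for Hnf4g, although Gata6 was higher in tumor with library totals or FPKM as the scale. Hnf4g, Klf4, Hnf4a, Cdx1 and Cdx2 fell most, and Gata5, Gata4 and Gata6 least. By edgeR's quasi-likelihood test at an adjusted p under 0.05, 8 of 8 were called lower and 0 higher, where 35.4% of all tested genes were called lower and 38.9% higher. The median log2 fold change was -2.39 for the 8 genes and 0.07 for all tested genes. In 7 of the 8, every tumor library lay below every small intestine library in CPM, a pattern shown by 33.0% of tested genes. Gata4 was the exception.

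**Figure D1:**
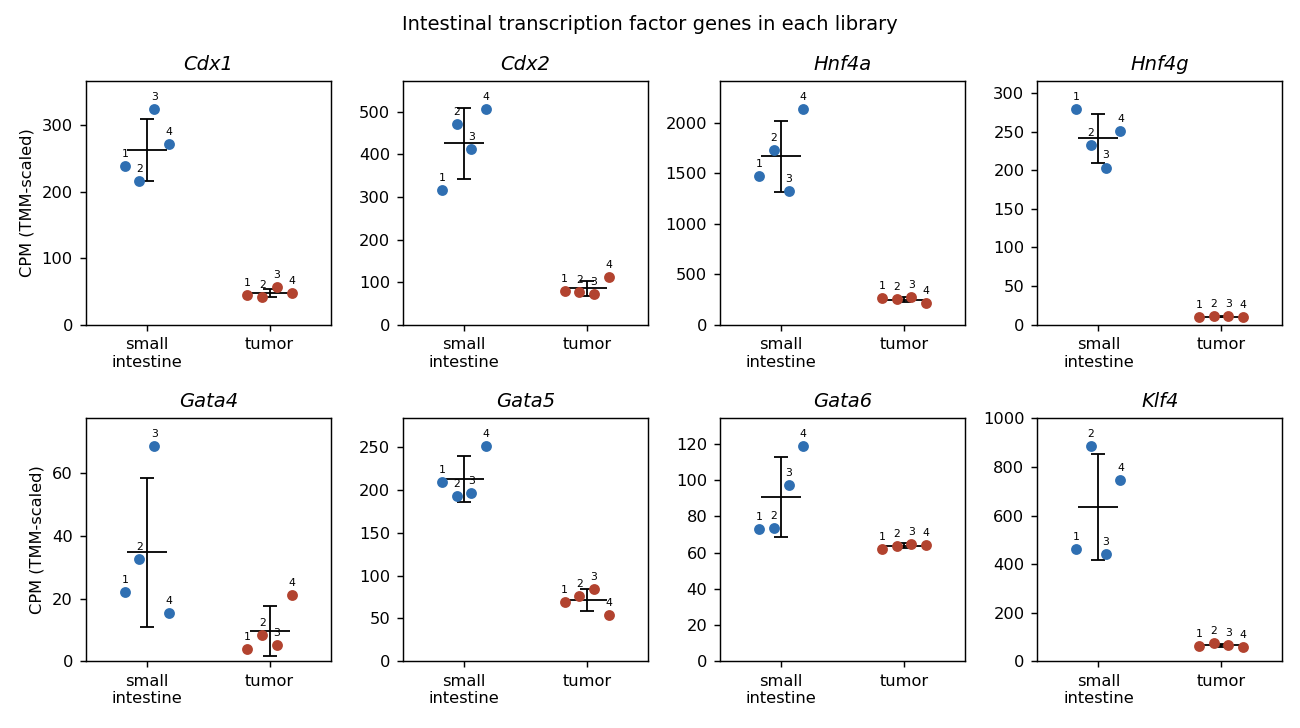
CPM (TMM-scaled) of the 8 genes on a linear axis starting at 0, 1 panel per gene, with 1 point per library numbered by replicate, the mean as a bar and the SD as whiskers (n = 4 per group). The groups lie apart in every panel except Gata4, where tumor replicate 4 (21.2 CPM) lies above small intestine replicate 4 (15.4 CPM).

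Cdx1 (ENSMUSG00000024619, chromosome 18, 61018862 to 61036199, GRCm38), a caudal homeobox factor of the crypt and villus, was at 44.6, 42.2, 57.2 and 47.4 CPM in tumor replicates 1 to 4 and at 239, 216, 324 and 271 CPM in small intestine replicates 1 to 4. Replicate 3 was the highest library of each group, and the groups lay far apart. The means were 47.8 ± 6.56 and 263 ± 47.0 CPM (SD over 4 libraries), and the log2 fold change was -2.46 ± 0.16 (± SE; edgeR quasi-likelihood adjusted p = 8.75e-07). Cdx2 (ENSMUSG00000029646, chromosome 5, 147300805 to 147307270) was at 79.4, 77.3, 72.3 and 112 CPM in tumor and at 316, 471, 412 and 506 CPM in small intestine. Tumor replicate 4 stood above the other tumor libraries yet far under the lowest small intestine library. The means were 85.3 ± 18.1 and 426 ± 83.3 CPM, a log2 fold change of -2.32 ± 0.19 (edgeR quasi-likelihood adjusted p = 4.57e-06). The Cdx1 to Cdx2 count ratio within a library overlapped between the tissues, with a mean log2 difference of -0.13 (exact 2-sided permutation p = 0.686, adjusted p = 0.771 over 5 ratios of related genes). Thus both caudal genes were lower by similar amounts, and no shift between them passed the test. That difference became 0.01 without tumor replicate 4.

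Hnf4a (ENSMUSG00000017950, chromosome 2, 163506808 to 163572910), the nuclear receptor with the highest level of the group, was at 260.1, 256, 271 and 212 CPM in tumor and at 1471, 1733, 1330.4 and 2139 CPM in small intestine. No tumor library came near the small intestine libraries. The log2 fold change was -2.74 ± 0.18 (edgeR quasi-likelihood adjusted p = 1.12e-06), from 1669 ± 355 CPM in small intestine to 249.7 ± 25.9 CPM in tumor. Hnf4g (ENSMUSG00000017688, chromosome 3, 3508030 to 3658052), its intestinal paralog, was at 10.1, 11.4, 11.0 and 9.73 CPM in tumor and at 279, 233, 203 and 251 CPM in small intestine. The tumor libraries were nearly alike, and the group means of 10.6 ± 0.791 and 242 ± 31.7 CPM differed by 22.9-fold (log2 fold change -4.51 ± 0.13, edgeR quasi-likelihood adjusted p = 2.26e-08). Only 2.82% of tested genes had a lower log2 fold change than Hnf4g, against 7.15% for Hnf4a. The log2 ratio of Hnf4g to Hnf4a counts was -4.69, -4.48, -4.62 and -4.44 in tumor and -2.40, -2.90, -2.71 and -3.09 in small intestine. Thus Hnf4g was lower than Hnf4a by a further 1.78 on the log2 scale in tumor, without overlap. The exact 2-sided permutation p was 0.0286, the smallest that 4 against 4 can give, and 0.0714 after adjustment over the 5 ratios, so this difference did not pass. It could not pass, whatever its size, unless more of the 5 ratios reached that smallest p. The antisense gene Hnf4aos, which overlaps Hnf4a but shares none of its exon bases, had 4 counts in tumor and 533 in small intestine, summed over libraries. The strand setting of the counting is not stated in the labels or the processing notes.

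Klf4 (ENSMUSG00000003032, chromosome 4, 55527143 to 55532466), the factor of differentiated surface and goblet cells, was at 65.2, 75.3, 67.0 and 59.1 CPM in tumor. In small intestine it was at 464, 887, 442 and 745 CPM. Small intestine replicates 2 and 4 were well above replicates 1 and 3, while the tumor libraries stayed close together. The means were 66.7 ± 6.71 CPM in the tumors and 634 ± 218 CPM in the controls, 9.52-fold apart (log2 fold change -3.25 ± 0.25, edgeR quasi-likelihood adjusted p = 2.49e-06), and 5.37% of tested genes had a lower log2 fold change. Klf4 thus had the second largest difference of the 8 genes, after Hnf4g.

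Gata5 (ENSMUSG00000015627, chromosome 2, 180325133 to 180334699), the GATA factor of villus cells, was at 69.5, 76.7, 84.0 and 54.1 CPM in tumor and at 208, 193, 196 and 251 CPM in small intestine. The groups did not overlap, and the log2 fold change was -1.58 ± 0.15 (edgeR quasi-likelihood adjusted p = 1.14e-05). Its antisense neighbour Gata5os shares 258 exon bases with it and had 193 counts in tumor and 218 in small intestine, so a small part of the Gata5 counts may be uncertain. Gata6 (ENSMUSG00000005836, chromosome 18, 11052064 to 11085635), the GATA factor expressed along the whole gut, was at 61.8, 63.8, 64.9 and 64.4 CPM in tumor and at 73.1, 73.6, 97.1 and 119 CPM in small intestine. The tumor libraries were almost equal, and small intestine replicates 1 and 2 lay only a little above them. The log2 fold change was -0.51 ± 0.15 (edgeR quasi-likelihood adjusted p = 0.0138), and 34.5% of tested genes had a lower log2 fold change, so that Gata6 lay close to the middle of all genes. The gene 1010001N08Rik on the opposite strand shares 93 exon bases with Gata6 and had 856 counts in tumor and 569 in small intestine.

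Gata4 (ENSMUSG00000021944, chromosome 14, 63198922 to 63271692), the GATA factor of the proximal small intestine, was at 3.96, 8.28, 5.23 and 21.2 CPM in tumor and at 22.2, 32.6, 68.7 and 15.4 CPM in small intestine. It was the only one of the 8 whose groups overlapped, and it spread widely within both groups, with means of 9.67 ± 7.91 and 34.8 ± 23.7 CPM. The log2 fold change was -1.84 ± 0.61 (edgeR quasi-likelihood adjusted p = 0.0206). The call rested on single libraries: the log2 fold change was -1.28 (edgeR adjusted p = 0.0697) without small intestine replicate 3, and the call was also lost without tumor replicate 2 (adjusted p = 0.0529) or tumor replicate 3 (adjusted p = 0.0555). Without tumor replicate 4 it was -2.55 (edgeR adjusted p = 0.00285).

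The scale on which tissues were compared decided the sign for Gata6 and the call for Gata4. With library totals only, a scale on which 17.6% of all tested genes were called lower and 62.0% higher, the log2 fold change of Gata6 was 0.37 ± 0.13 (edgeR quasi-likelihood adjusted p = 0.0310), higher in tumor, and that of Gata4 was -0.98 ± 0.62 (adjusted p = 0.171). The other 6 genes were still called lower, from -0.71 for Gata5 to -3.65 for Hnf4g. On the authors' FPKM values, tested with limma on log2(FPKM + 1), 6 of the 8 were called lower, 1 (Gata6) higher and 1 (Gata4) not called, where 18.1% of 12849 tested genes were called lower and 64.6% higher. Gata6 stood at 25.2 to 26.9 FPKM in tumor and at 15.7 to 23.5 FPKM in small intestine, with a log2 difference of 0.45 ± 0.13 (limma adjusted p = 0.0110). Gata4 was at -0.88 ± 0.48 (limma adjusted p = 0.121), and was called without tumor replicate 4, at -1.24 (limma adjusted p = 0.0287). Relative to the median of all tested genes, Gata6 was lower on each scale: by -0.58 with TMM, -0.57 with library totals and -0.31 on FPKM, on the log2 scale. Hnf4g was the lowest relative to that median on each scale, at -4.59 with TMM and with library totals and at -4.06 on FPKM.

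A ratio to epithelial genes in the same library does not depend on the scale. Relative to the geometric mean of 12 pan-epithelial genes (Epcam, Cdh1, keratins, claudins and others), 6 of the 8 factors were lower in tumor, Gata6 was higher and Gata4 did not pass. The mean log2 ratio fell by 3.61 for Hnf4g, by 2.30 for Klf4, by 1.83 for Hnf4a, by 1.55 for Cdx1, by 1.43 for Cdx2 and by 0.69 for Gata5. For Gata6 it was 0.42 higher in tumor. For each of these 7 the groups did not overlap, with an exact 2-sided permutation p of 0.0286, the smallest that 4 against 4 can give, and 0.0327 after adjustment over the 8 genes. None of the 7 could have passed alone, since the adjusted p depends on how many of the genes reach that smallest p. Gata4 overlapped, at -1.04 (exact permutation p = 0.229). The Gata6 call was lost whichever tumor library was left out, with differences of 0.34 to 0.45 (exact permutation adjusted p = 0.0653). That of Cdx2 was lost without small intestine replicate 2, 3 or 4, with differences of -1.38, -1.43 and -1.41 at the same adjusted p. In each of these cases tumor and small intestine still did not overlap. The p rose because another 3 against 4 split of the same libraries gave a larger difference. The reference itself was not even: 9 of the 12 pan-epithelial genes were called lower in tumor and 2 higher with TMM, from -2.45 for Spint1, a protease inhibitor, and -2.43 for Cldn7, a claudin, to 1.19 for Cldn4, another claudin. With library totals only, 6 were called lower and 5 higher. Over all tested genes the shares were 35.4% lower and 38.9% higher with TMM, and 17.6% and 62.0% with library totals. Epcam, an adhesion molecule of epithelia, had a log2 fold change of -1.26 (1525 ± 209 against 3662 ± 837 CPM), Krt8, a keratin, -1.41 and Cdh1, the epithelial cadherin, -0.43. Against each of the 12 genes alone, Hnf4a, Hnf4g and Klf4 were lower in tumor every time and passed every time. Hnf4g ranged from -5.85 to -2.07 in those comparisons. Cdx1 was lower against all 12 and passed against 10. Cdx2 was lower against 10 and passed against 7. Gata5 and Gata6 had no fixed direction. Gata5 was lower against 8 of the 12 and passed against 5, and was higher and passed against 2, Cldn7 at 0.83 and Spint1 at 0.85 (exact permutation adjusted p = 0.0457 for both). Gata6 was lower and passed against 3 genes and higher and passed against 7, from -1.82 to 1.96. Gata4 was lower against 10 and passed against 1.

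**Figure D2:**
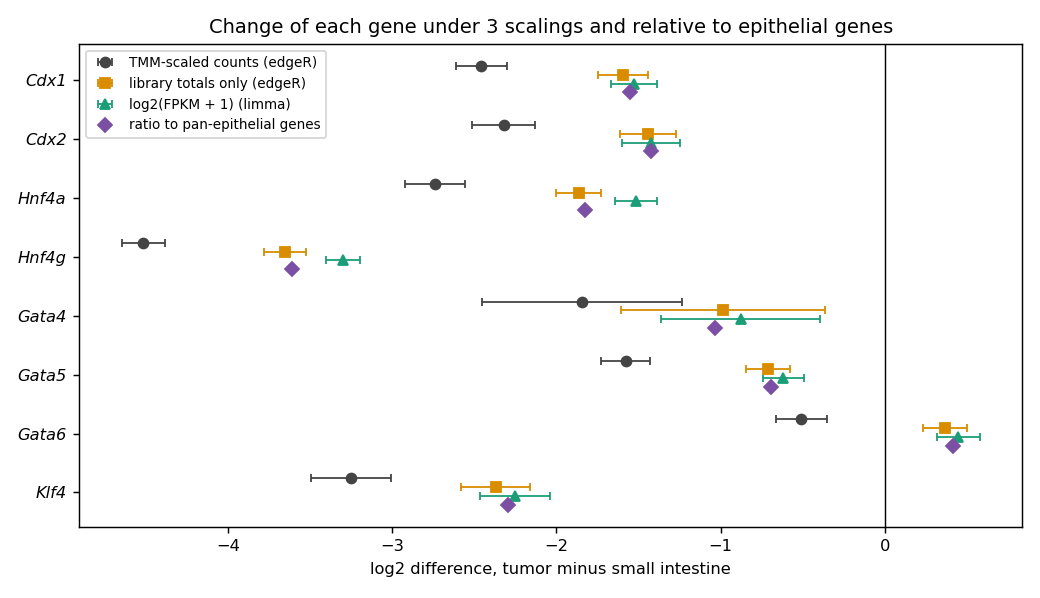
Log2 difference of each gene, tumor minus small intestine, with TMM-scaled counts, library totals, FPKM and as a ratio to 12 pan-epithelial genes; whiskers are the SE of the edgeR or limma fit (8 libraries), and the ratios have none drawn. Gata6 changes side, from -0.51 with TMM to 0.37 with library totals, while Hnf4g stays at -3.30 or lower on every scale.

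Levels of different genes were compared on FPKM, which is per gene length. In small intestine the order was Hnf4a at 232 ± 39.1 FPKM, Klf4 at 131 ± 44.4, Cdx2 at 119 ± 21.1, Cdx1 at 94.4 ± 17.5, Hnf4g at 72.2 ± 9.58, Gata5 at 39.3 ± 2.78, Gata6 at 19.3 ± 3.88 and Gata4 at 7.55 ± 5.29. Libraries of Klf4 and Cdx2, of Cdx2 and Cdx1, and of Cdx1 and Hnf4g overlapped, so these neighbours in the order were not apart. In tumor the order was Hnf4a at 79.9 ± 5.71 FPKM, Cdx2 at 43.9 ± 9.83, Cdx1 at 31.8 ± 3.96, Gata6 at 26.2 ± 0.749, Klf4 at 25.7 ± 2.55, Gata5 at 25.5 ± 4.23, Hnf4g at 6.41 ± 0.407 and Gata4 at 3.60 ± 2.79. There the overlapping neighbours were Cdx2 and Cdx1, Gata6 and Klf4, Klf4 and Gata5, and Hnf4g and Gata4. Hnf4a led in both tissues, Klf4 moved from the second to the fifth place, and Gata6 from the seventh to the fourth.

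Within families, Hnf4g made up 7.44 ± 0.579% of the summed Hnf4 FPKM in tumor and 23.9 ± 3.38% in small intestine, with the groups apart. Gata6 made up 47.5 ± 1.91% of the summed FPKM of Gata4, Gata5 and Gata6 in tumor and 29.0 ± 3.43% in small intestine, also apart. Gata5 had 45.9 ± 6.48% in tumor and 59.8 ± 6.70% in small intestine, with overlap. Gata4 had 6.53 ± 5.15% and 11.2 ± 6.83%. The log2 ratio of Gata6 to Gata5 counts differed by 1.11 between the tissues without overlap, with an exact 2-sided permutation p of 0.0286 and 0.0714 after adjustment over the 5 ratios. As for Hnf4g to Hnf4a, it could not pass unless more of the 5 ratios reached that smallest p. The ratios to Gata4 overlapped, with differences of 1.45 for Gata6 (exact permutation p = 0.143) and 0.34 for Gata5 (exact permutation p = 0.771). Without small intestine replicate 3 the Gata5 to Gata4 difference was -0.10. Cdx1 made up 42.4 ± 6.17% of the summed Cdx FPKM in tumor and 44.3 ± 6.51% in small intestine.

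**Figure D3:**
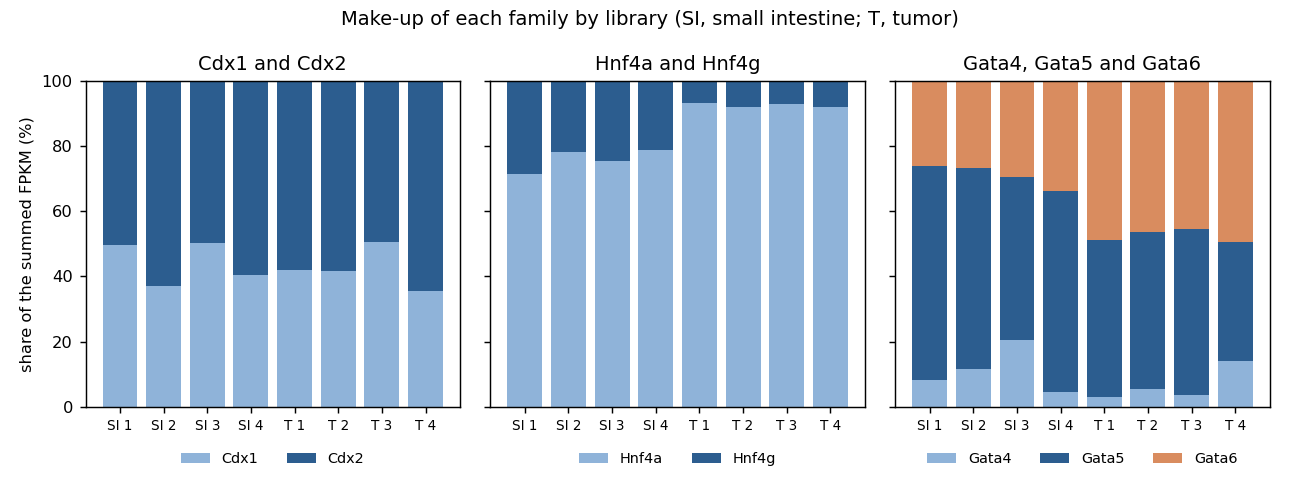
Share of each gene in the summed FPKM of its family (percent, axis from 0 to 100), 1 bar per library. Hnf4g takes 6.89 to 8.02% of its family in tumor and 21.1 to 28.5% in small intestine, and Gata6 takes 45.4 to 49.5% against 26.1 to 33.7%.

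For each factor the genes with the most similar profile over the 8 libraries were found among 11227 genes with a mean of at least 5 CPM. The measure was the root mean square difference of the centred log2 of CPM plus 0.5, which makes changes of low genes come out smaller. Hnf4a was closest to Eps8l2, an actin regulator, at 0.0724, and to Myh14, a nonmuscle myosin, at 0.0991. Hnf4g was closest to Myo1a, the brush border myosin, at 0.124, and to Gm21885 at 0.168. Cdx1 was closest to Ech1, an enzyme of fatty acid oxidation, at 0.125 and to Rfng at 0.146. Cdx2 was closest to Tmem170 at 0.141 and to Neurl3 at 0.152. Klf4 was closest to Gprin1 at 0.116 and to Stk17b at 0.155. Gprin1 (0.714 CPM in tumor) and Gm21885 (0.401 CPM in tumor) were low there, so their likeness depends on the added 0.5. Their edgeR log2 fold changes were -3.96, against -3.25 for Klf4, and -5.63, against -4.51 for Hnf4g. Gata5 was closest to Dst at 0.0989 and to Mical2 at 0.101. Gata6 was closest to Fam114a1 at 0.0915 and to Mtus1 at 0.0942. Gata4 had no near neighbour, with Smpdl3b at 0.510 and Psmb8 at 0.539. The 4 libraries of a group share their tissue.

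Among 20 partner factors that act with these genes in gut epithelium, 19 were tested. With TMM 11 were called lower in tumor, 5 higher and 3 not called, beside 35.4% of all tested genes called lower and 38.9% higher. Their median log2 fold change was -0.96, against 0.07 for all tested genes. Maf, a factor of villus enterocytes, had the lowest value, -5.34 ± 0.21 (17.3 ± 2.72 against 703 ± 142 CPM, edgeR quasi-likelihood adjusted p = 7.07e-08). Vdr, the vitamin D receptor, followed at -4.99 ± 0.13. The highest was Zfpm1, a GATA cofactor also called FOG1, at 2.31 ± 0.29, with 75.5 to 112 CPM in tumor and 14.0 to 32.9 CPM in small intestine. Thus a cofactor of GATA proteins was higher in tumor where Gata4 and Gata5 were lower with TMM. With library totals only, 9 partner factors were called lower and 9 higher, on a scale where 17.6% of all tested genes were called lower and 62.0% higher. Named after their values were seen, Isx, a target of CDX2, was at -4.25, Nr1h4, the bile acid receptor, at -4.40, and the pioneer factor Foxa1 at 2.07. Pdx1, a duodenal factor, was too low to test.

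Of 17 other Cdx, Gata and Klf genes 15 were tested, and 4 were called lower, 6 higher and 5 not called, with a median of 0.14, beside 35.4% of all tested genes called lower and 38.9% higher. With library totals only, 2 were called lower and 12 higher, beside 17.6% and 62.0% of all tested genes. Gata2, a factor of blood and mast cells, was the highest of these at 4.89 ± 0.62, with 3.60, 4.88, 11.5 and 4.65 CPM in tumor and 0.0840 to 0.452 CPM in small intestine. Tumor replicate 3 had the most Gata2, and it also had the most of the mast cell proteases Mcpt1 (1062 CPM, against 24.5 to 169 in the other tumor libraries) and Cpa3 (56.9 CPM, against 1.79 to 10.6). Whether Gata2 goes with mast cells was not tested. Klf12 followed at 3.41 ± 0.30, and Klf15 was the lowest at -3.02 ± 0.46. In all small intestine libraries together Gata2 had 46 counts, Klf8 51 and Klf12 48. These genes passed the low-count filter through the tumor libraries alone, so only a higher level could be called. Gata3 was at 0.609 to 1.09 CPM in tumor and 0.651 to 0.973 CPM in small intestine and was not called (edgeR adjusted p = 0.668). Gata1 was not tested, at a mean CPM of 0.369 in tumor and 0.0264 in small intestine, and Cdx4 had 0 counts in all 8 libraries. The sum of the 8 factors was 580.1 to 633 CPM in tumor and 3073 to 4298 CPM in small intestine.

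Genes known as targets of the caudal and HNF4 factors were lower in tumor throughout. Of all tested genes, 35.4% were called lower and 38.9% higher with TMM, and 17.6% and 62.0% with library totals only. Of 12 CDX-linked intestinal genes 12 were called lower, with a median log2 fold change of -3.65, led by Lct, the lactase, at -10.62 ± 0.82 and Sis, sucrase-isomaltase, at -7.87 ± 0.32. Lct had 29 counts in all tumor libraries together. It passed the low-count filter through the small intestine libraries alone, so only a lower level could be called. Of 13 tested HNF4-linked lipid genes 13 were called lower, with a median of -5.70 (12 with library totals only). Slc2a2, the basolateral sugar transporter, was at -9.24 ± 0.59 and Apoc3, an apolipoprotein, at -8.54 ± 0.47. The medians of both lists lay below that of the 8 factors, -2.39, and these genes are also genes of differentiated enterocytes. Of 12 KLF4-linked goblet and cell cycle genes 7 were called lower, 3 higher and 2 not called, beside the 35.4% and 38.9% of all tested genes. Alpi, intestinal alkaline phosphatase, was at -6.42 ± 0.31 and Zg16, a goblet cell lectin, at -5.87 ± 0.38, while Retnlb, another goblet cell product, was higher at 7.23 ± 1.24. Retnlb was at 86.2 CPM in tumor replicate 3 and at 3.49 to 11.9 CPM in the other tumor libraries. In all small intestine libraries together Retnlb had 41 counts. It passed the low-count filter through the tumor libraries alone, so only a higher level could be called. Of the cell cycle genes on that list, chosen for mention after their values were seen, the inhibitor Cdkn1a was at -2.19 and Ccnd1, which encodes cyclin D1, at 1.56 (1 of the 3 called higher).

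**Figure D4:**
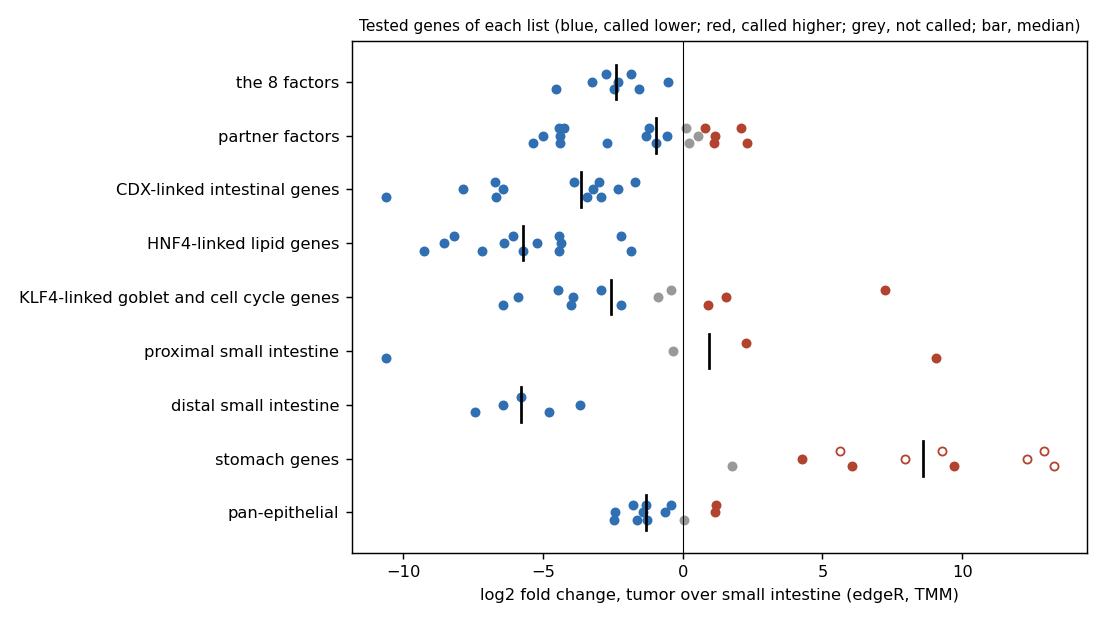
Log2 fold change, tumor over small intestine (edgeR, TMM), of the tested genes of each list, 1 point per gene, coloured by call, with a bar at the list's median; open points have 3 or fewer counts in all small intestine libraries together, and their values depend on the prior count. The CDX-linked and HNF4-linked genes all lie below 0, with medians of -3.65 and -5.70. The stomach genes, Onecut2 and Retnlb passed the low-count filter through the tumor libraries alone, and Lct through the small intestine libraries alone.

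Genes of gut regions were set beside Gata4, the factor tied to the proximal small intestine. In small intestine, replicate 3 had the highest Gata4 (68.7 CPM), the highest lactase (Lct at 332 CPM, against 92.0, 56.7 and 80.2 in replicates 1, 2 and 4) and the lowest ileal bile acid transporter (Slc10a2 at 183 CPM, against 587, 543 and 844). Replicate 4 had the lowest Gata4 (15.4 CPM) and the highest Slc10a2. Fabp6, the ileal bile acid binding protein, was at 5412, 8636, 5360 and 8289 CPM and thus high in all 4. Other proximal genes did not share that order: in small intestine replicate 3, Cybrd1 was at its lowest of the group (0.399 CPM, against 3.47, 1.64 and 0.466), as was Slc40a1, the iron exporter (35.8 CPM, against 39.2, 59.1 and 40.4). In tumor Lct was at 0.0419 to 0.110 CPM and Fabp6 at 25.4 to 63.4 CPM, also in replicate 4, which had the most Gata4 of the tumors. This order of 4 libraries is a description, with no test. Of all tested genes, 35.4% were called lower in tumor and 38.9% higher. Across the lists, 5 of 5 distal genes were called lower in tumor (median -5.77), led by Fabp6 at -7.43 ± 0.42 and Slc51a, a bile acid exporter, at -6.43 ± 0.28. Of 4 tested proximal genes, too few to set against those shares, 1 was called lower (Lct), 2 were called higher and 1 was not called. The higher ones were Onecut2, a duodenal homeobox factor, at 9.07 ± 0.50 and Cybrd1, a duodenal iron reductase, at 2.25 ± 0.62. Onecut2 had 58 counts in all small intestine libraries together and passed the low-count filter through the tumor libraries alone. Lct passed it through the small intestine libraries alone. Onecut2 and Lct could thus be called only in the direction they took.

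**Figure D5:**
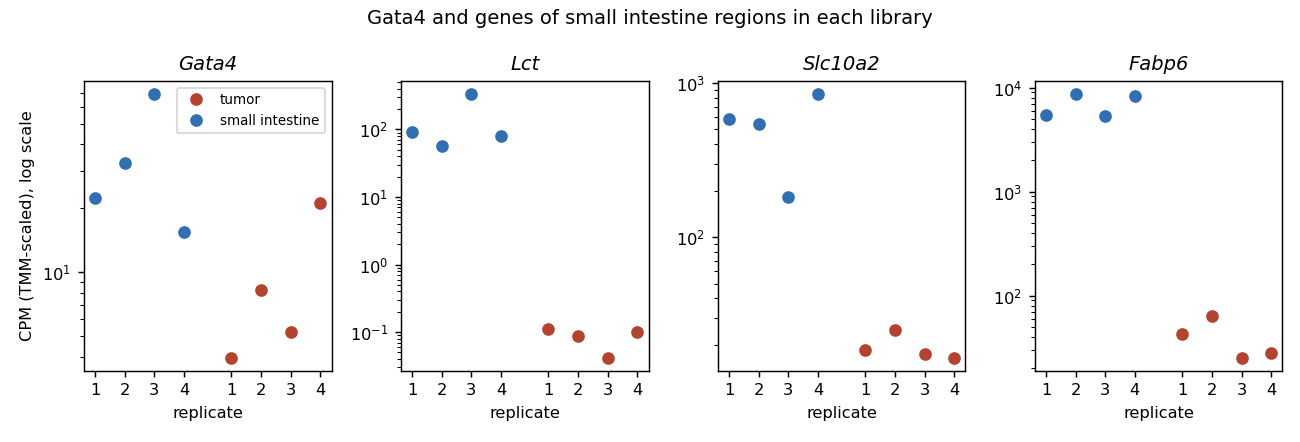
CPM (TMM-scaled, log axis) of Gata4, Lct, Slc10a2 and Fabp6 in each library, by replicate number and tissue. Small intestine replicate 3 is highest for Gata4 (68.7 CPM) and Lct (332 CPM) and lowest for Slc10a2 (183 CPM), while Fabp6 is at 5360 CPM or more in all 4 small intestine libraries.

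Stomach genes were set beside Cdx2. Of 14 such genes 10 passed the low-count filter. Each of the 10 had at most 38 counts over the 4 small intestine libraries and passed through the tumor libraries alone, so only a higher level in tumor could be called, and a tally of calls says nothing further. Gkn3, a gastrokine, had 36136 counts in tumor and 2 in small intestine, summed over libraries. The ratio per unit of library size was 11971, with a 95% interval (exact binomial, counting error only) of 3314 to 98854. Anxa10, an annexin of gastric epithelium, had 4660 and 0 counts and was at least 258-fold higher in tumor with the floor of 3 counts per library. Sox2, a factor of the stomach and foregut, was too low to test, with 16 counts in all tumor libraries together and 1 in all small intestine libraries. Whether the level of stomach genes goes with that of Cdx2 was not tested.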

How the data were processed

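RNA was sequenced from 4 tumor and 4 small intestine libraries. The authors deposited whole-number counts per gene, which were used unchanged, and FPKM values per gene, which they had scaled for depth and transcript length. The tools named in the submitters' processing notes were FastQC, STAR, HTSeq 0.6.0 and Cufflinks 2.2.1, with the build GRCm38. What each tool did, the strand setting and the treatment of shared reads: not given in the sources used here. Titles and tissue labels gave the groups and replicate numbers.

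Counts were tested with edgeR 4.0.16 (glmQLFit, glmQLFTest; R 4.3.3) with TMM, filterByExpr and tissue as the only term. Adjustment was by Benjamini-Hochberg over all 17029 tested genes, with a threshold of 0.05. For FPKM, limma 3.58.1 (trend) was run on log2(FPKM + 1) over genes averaging at least 1. Changes of low genes come out too small on that scale. Ratios within a library used counts plus 0.5 and exact 2-sided permutation tests. Both fits were tested on simulated data with 200 changed genes among 16814 for edgeR and 153 among 12663 for limma. edgeR recovered 52% of 2-fold and 82% of 4-fold changes, with 4.96% of its calls false. For limma these were 61.7%, 93.1% and 7.14%. Few genes changed there, equally up and down, so the simulation does not test the choice of scale between the tissues. Floors and intervals cover counting error only, since reads carry no molecular identifiers. No libraries of a group agreed within sampling noise. Of 43629 gene identifiers 42462 had a symbol, and coordinates come from a GRCm38 annotation.

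The 8 genes, the lists, the tests and the rule for naming genes were chosen with earlier results of these data known. The rule named the 8 genes and, from each list, the 2 called genes with the largest change in the list's main direction and 1 in the other, at a mean of at least 1 CPM. It also took the other Gata genes, Epcam, Cdh1 and Krt8, and the 2 closest profiles of each factor. An item on one of the lists is not reported here. Replicate numbers were checked for pairing: tumor and small intestine libraries of the same number did not deviate together (correlations of -0.10, -0.17, -0.01 and -0.24 over 11228 genes), so they were treated as unpaired. Alternatives included DESeq2 1.42.0 and its size factors, library totals, other filters, other pseudocounts, a replicate block and leaving out each library.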

Additional observations from a re-analysis of the deposited data

Results flagged for a closer look

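In 42 groups of 4 libraries (the 8 factors and their ratios in each tissue), 1 library stood apart from the others of its group by Dixon's criterion, which chance meets in about 1 in 20 groups. It was tumor replicate 4 for the log2 ratio of Gata6 to the pan-epithelial genes, at -3.00, where the other tumor libraries lay between -3.31 and -3.26. Without it, the Gata6 ratio was 0.34 higher in tumor on the log2 scale, against 0.42 with it.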

How the results depend on the processing

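With library totals only, 1 factor was called higher, since Gata6 reversed to 0.37, and Gata4 lost its call at -0.98. Under DESeq2's size factors or Wald test, the other filters and TMM without the 50 most abundant genes, all 8 factors were called lower; 7 had at least a 2-fold change. With the replicate block in place of unpaired libraries, 8 factors were called lower, Gata4 at -1.99 (edgeR adjusted p = 0.0358) and Gata6 at -0.48, while calls over all genes went from 6030 lower and 6619 higher to 5592 and 6301. Leaving out each library in turn, Gata4 ranged from -2.55 to -1.28 with calls lost as given above, and on FPKM from -1.24, called without tumor replicate 4, to -0.51. The Cdx1 to Cdx2 difference ranged from -0.29 to 0.0122 and the Gata5 to Gata4 difference from -0.10 to 0.95. The pan-epithelial ratio of Gata6 ranged from 0.31 to 0.48 and lost its call whichever tumor library was left out, and that of Cdx2 ranged from -1.63 to -1.33 and lost it without small intestine replicate 2, 3 or 4. These exact tests of 3 against 4 cannot go below 0.0286, and the groups did not overlap in any of the lost calls.

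Against single pan-epithelial genes, the Gata6 ratio went as low as -1.82, while the ratios of Cdx1, Cdx2, Gata4 and Gata5 went as high as -0.0104, 0.12, 0.51 and 0.85. Against Epcam alone Gata5 was at -0.34 and did not pass. A setting chosen after seeing the data left out tumor replicate 4 and small intestine replicate 3 together. Gata6 was then at -0.43 (edgeR adjusted p = 0.0696) and the Cdx1 to Cdx2 difference at 0.13. The pan-epithelial ratios were -1.51 for Cdx1, -1.64 for Cdx2, -1.92 for Hnf4a, -3.72 for Hnf4g, -0.67 for Gata5, 0.39 for Gata6 and -2.46 for Klf4; none could pass, because 3 against 3 cannot give an exact p below 0.1. Other causes of these changes were not tested. Depth limits only the genes near the floor, such as Sox2.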
